A study of Mus musculus with 4 samples.

Results

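The genes described here are 38 genes of the unfolded protein response and the integrated stress response, out of 25567 genes counted in every library. They were chosen by symbol from a fixed list, matched to mouse gene identifiers, and all 38 were found. By role they are 13 chaperones and folding enzymes of the endoplasmic reticulum (ER), 7 genes of ER-associated degradation (ERAD), 8 sensors, transducers and controllers of the translation factor eIF2, and 10 genes made up of Atf4 and genes that the ATF4 protein activates. Counts came from single nuclei of the mouse hippocampus, each in a well of its own, by the Smart-seq2 protocol, in which amplified copies of 1 molecule cannot be recognised because no molecular identifier is added. There were 4 groups with 1 library each, all from animals aged 8.5 months. The EdU+ groups, Fasn-R1812W and WT, held nuclei sorted for EdU, a thymidine analogue taken up in DNA synthesis; animals received 100 mg per kg in 2 doses daily over 3 days, and nuclei were isolated on day 4. The NeuN+ groups, Fasn-R1812W and WT, held nuclei sorted for NeuN, a protein of neuronal nuclei. Fasn-R1812W mice carry the substitution R1812W in the enzyme of de novo fatty acid synthesis, fatty acid synthase, and WT mice do not. The number of animals behind a library is not given in the labels, so every difference between libraries may be one between animals or between plates.

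Proteins that enter the ER are folded by chaperones such as BiP, and proteins that fail to fold are pulled out and degraded by ERAD. When unfolded proteins gather, the membrane sensors IRE1, PERK and ATF6 start the unfolded protein response: IRE1 splices Xbp1 mRNA, ATF6 is cut free as a transcription factor, and PERK phosphorylates eIF2, which slows translation and favours synthesis of ATF4. The kinase GCN2, which senses amino acid shortage, also phosphorylates eIF2, and the shared output through ATF4 is called the integrated stress response. In the brain the response is studied in secretory and myelinating cells and in neurons under proteostatic load. Nuclear RNA counts show the share of a gene among the reads of a nucleus, and not splicing of Xbp1, phosphorylation of eIF2 or cleavage of ATF6.

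The promoters of these genes hold different response elements by role. RefSeq promoters (250 bases before to 50 after the start of transcription, build GRCm38.p6) were matched for 33 members, and Hyou1, Derl1, Manf, Atf6 and Ppp1r15b had no entry. The ER stress response element, CCAAT, then 9 bases of any kind, then CCACG, searched on both strands, was found in 8 of the 33 members. It was found in 37 of all 27025 genes with a promoter, or 0.137%. The 8 were Hspa5, Hsp90b1, Canx, Calr, Pdia6, Dnajc3 and Creld2, which are 7 of the 11 matched chaperone genes, and the ERAD gene Syvn1. The second such element, ATTGG, then 1 base, then CCACG, was found in Herpud1, among 12 of all genes or 0.0444%. The core of the C/EBP-ATF response element, TGATG, then 1 base, then AA, was found in Asns, Atf3, Chac1, Trib3 and Herpud1. That core was found in 1219 of all genes, or 4.51%, and no matched sensor gene held any of the 3 motifs. A match is a description of letters, and no binding was measured. These windows show the elements of the chaperone genes Hspa5, Canx, Hsp90b1, Pdia6 and Calr, of the ERAD genes Syvn1 and Herpud1, and of the ATF4 targets Asns and Chac1. Each is on the strand of the gene, 5′ to 3′, and capitals mark the matched motif, which on the opposite strand reads as its reverse complement. The windows lie at chr2:34772010-34772058 (plus strand), chr11:50325785-50325833 (minus), chr10:86705518-86705671 (minus), chr12:17266476-17266524 (plus), chr8:84847060-84847108 (minus), chr19:6046517-6046565 (plus), chr8:94386302-94386402 (plus), chr6:7693210-7693247 (minus) and chr2:119351034-119351071 (plus).
Hspa5: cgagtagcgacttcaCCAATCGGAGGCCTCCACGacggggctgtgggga
Canx: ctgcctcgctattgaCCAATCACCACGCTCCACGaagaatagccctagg
Hsp90b1: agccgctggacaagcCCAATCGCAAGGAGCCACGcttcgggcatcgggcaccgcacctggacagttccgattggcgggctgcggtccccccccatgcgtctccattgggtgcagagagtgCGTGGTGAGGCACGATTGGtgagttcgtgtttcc
Pdia6: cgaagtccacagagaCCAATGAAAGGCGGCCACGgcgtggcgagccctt
Calr: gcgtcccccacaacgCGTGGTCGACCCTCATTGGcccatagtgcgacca
Syvn1: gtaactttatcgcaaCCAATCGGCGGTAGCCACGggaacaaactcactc
Herpud1: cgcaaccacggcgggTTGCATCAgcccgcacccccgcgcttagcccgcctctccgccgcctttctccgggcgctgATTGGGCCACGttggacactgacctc
Asns: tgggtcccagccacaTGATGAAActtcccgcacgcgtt
Chac1: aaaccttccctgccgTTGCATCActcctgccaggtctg
Hsp90b1 held the first element at 2 places, one on each strand, and Herpud1 held the second element and the C/EBP-ATF core 1 time each.

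Nuclei with at least 1000 genes and 50000 reads were kept, which left 348 and 167 nuclei in the EdU+ Fasn-R1812W and EdU+ WT libraries and 301 and 314 in the NeuN+ Fasn-R1812W and NeuN+ WT libraries, of 384 wells each. The EdU+ WT library stood apart by its depth. Its kept nuclei held 15032576 reads of nuclear-encoded genes, while the EdU+ Fasn-R1812W library held 94828240, the NeuN+ Fasn-R1812W library 70189823 and the NeuN+ WT library 69489842. EdU+ nuclei also had fewer genes each, with medians of 3006 (Fasn-R1812W) and 1298 (WT), against 4417 (Fasn-R1812W) and 4395.5 (WT) in the NeuN+ libraries. Of the defining gate markers, the cycling gene Top2a had 51.3 and 98.3 CPM (counts per 1000000 reads of nuclear-encoded genes) in EdU+ Fasn-R1812W and EdU+ WT nuclei, against under 1 CPM in both NeuN+ libraries. Rbfox3, which encodes NeuN, had 24.7 and 41.5 CPM in EdU+ Fasn-R1812W and EdU+ WT nuclei, against 171 and 151 CPM in NeuN+ Fasn-R1812W and NeuN+ WT nuclei. Oligodendrocyte precursor (OPC) markers, 14 genes, summed to 14113 and 17228 CPM in EdU+ Fasn-R1812W and EdU+ WT nuclei and to 494 and 532 CPM in NeuN+ Fasn-R1812W and NeuN+ WT nuclei. Fasn itself had 104 and 167 CPM in EdU+ Fasn-R1812W and EdU+ WT nuclei and 31.7 and 35.3 CPM in NeuN+ Fasn-R1812W and NeuN+ WT nuclei, and these counts cannot show the substitution. Y-linked genes were detected in all 4 libraries (Kdm5d between 79.98 and 115 CPM).

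Most chaperone genes had higher levels in EdU+ than in NeuN+ nuclei, 9 of 13 in both genotypes, where 32.1% of all genes tested were higher in both. The summed sensors and ATF4 group differed less between the gates. Summed over the 13 chaperone genes, the level was 2660.3 CPM in EdU+ Fasn-R1812W and 3161 CPM in EdU+ WT nuclei, against 1532 CPM in NeuN+ Fasn-R1812W and 1462 CPM in NeuN+ WT nuclei. The 7 ERAD genes summed to 749 CPM in EdU+ Fasn-R1812W and 1153 CPM in EdU+ WT nuclei, against 647 CPM in NeuN+ Fasn-R1812W and 618 CPM in NeuN+ WT nuclei. The 10 genes of the ATF4 group summed to 282 and 317 CPM in EdU+ Fasn-R1812W and EdU+ WT nuclei and to 253 and 269 CPM in NeuN+ Fasn-R1812W and NeuN+ WT nuclei. The sums of the gates did not overlap in any of these 3 groups. Among them the gap was widest for the chaperones and narrowest for the ATF4 group. The summed sensors did overlap, with 391 and 334 CPM in EdU+ Fasn-R1812W and EdU+ WT nuclei. In NeuN+ Fasn-R1812W and NeuN+ WT nuclei the sensors summed to 320 and 386 CPM. How often the sums of other gene sets overlap between the gates was not tested. Fewer nuclei that hold a transcript and less RNA per nucleus cannot be told apart in such pooled counts.

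**Figure D1:**
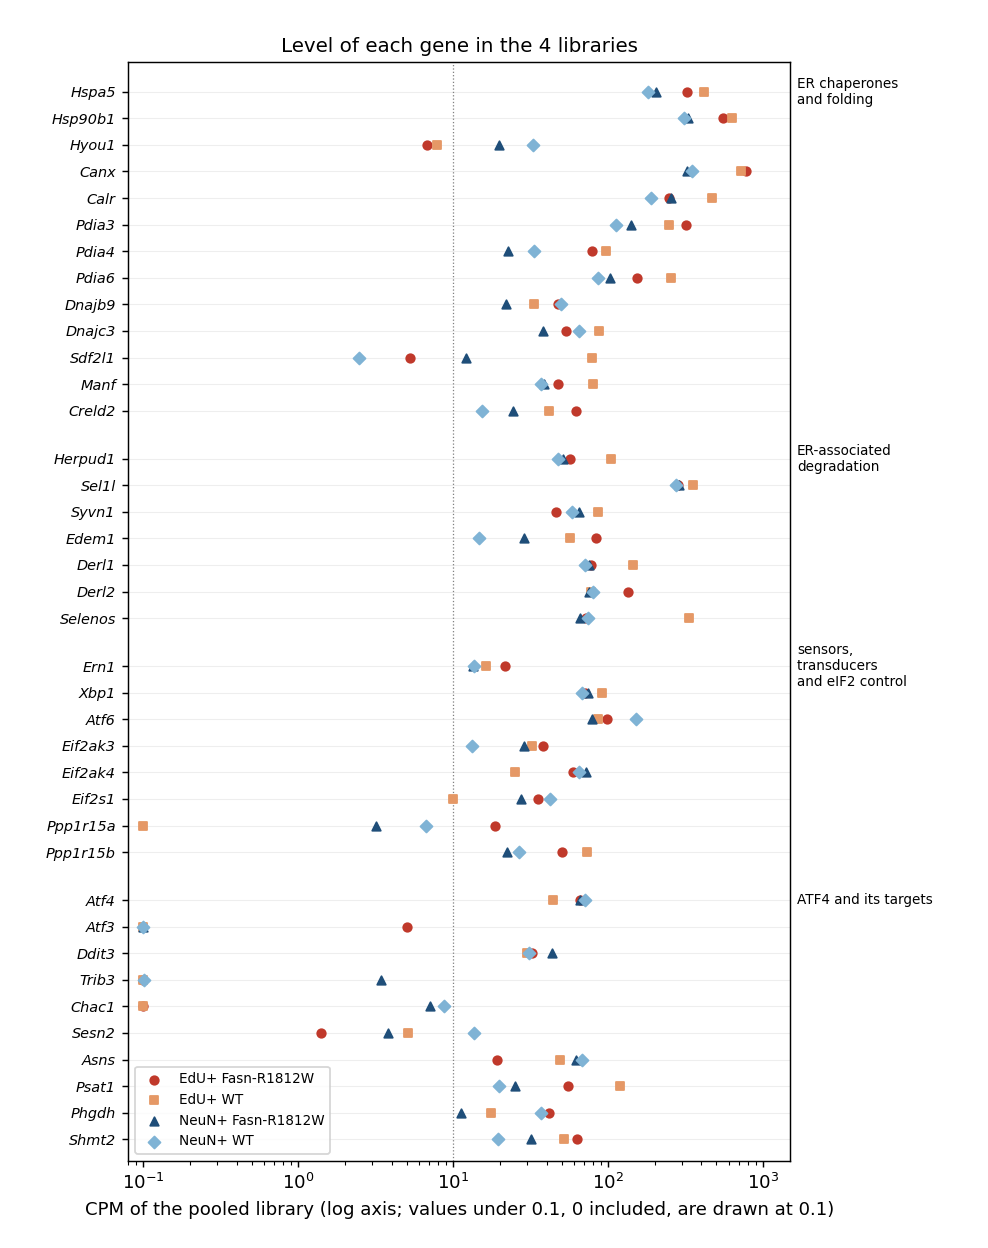
Pooled level of each of the 38 genes (rows, grouped by role) in CPM on a log axis, with 1 point per library. The EdU+ points of most chaperones lie to the right of the NeuN+ points, and Atf3, Trib3, Chac1 and Sesn2 lie at the low end, with values under 0.1 CPM drawn at 0.1.

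Canx, which encodes calnexin, a membrane chaperone that holds glycoproteins until they are folded, had 771 CPM in EdU+ Fasn-R1812W and 717 CPM in EdU+ WT nuclei, against 324 CPM in NeuN+ Fasn-R1812W and 348 CPM in NeuN+ WT nuclei. It was higher in both EdU+ libraries than in either NeuN+ library. Hspa5, which encodes BiP, the main ER chaperone of the Hsp70 family, had 322 CPM in EdU+ Fasn-R1812W and 417 CPM in EdU+ WT nuclei, against 205 CPM in NeuN+ Fasn-R1812W and 182 CPM in NeuN+ WT nuclei, so that its gates did not overlap either. One model with gate and genotype as terms (edgeR's quasi-likelihood test with Benjamini-Hochberg adjustment over 11917 genes) tested 33 members. It called 1 member higher in EdU+ nuclei, Canx, at a log2 fold change of 1.15 (SE 0.29, adjusted p = 0.0442), and 0 lower. Over all genes 6.94% were called higher and 5.49% lower, so 1 of 33 members is no more than the background. Under edgeR's TMM scaling the adjusted p of Canx was 0.0679 (edgeR's quasi-likelihood test). With gate as the only term, its log2 fold change was 1.095 without the NeuN+ Fasn-R1812W library and 1.199 without the NeuN+ WT library. The log2 fold change of Canx was 1.09 without the EdU+ Fasn-R1812W library and 1.20 without the EdU+ WT library. The count of members called rests on which libraries enter. Such fits leave 1 library in a gate, so their counts are not read against the background. At an unadjusted p under 0.05 there were 8 members, all higher in EdU+ nuclei: Canx, Pdia3, Pdia4, Pdia6, Hsp90b1, Hspa5, Edem1 and Psat1. At that threshold 12.8% of all genes were higher and 13.1% lower. DESeq2's Wald test called the same 8 of 33, near the share it called over all genes (24.3%, in either direction).

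Of the 33 members tested, 26 had a log2 fold change above 0 and 7 below 0, with a median of 0.63, beside a median of -0.08 over all genes tested. The 13 chaperone genes had a median of 0.93, with 12 above 0. Those 12 were Hspa5, Canx, Hsp90b1 (an Hsp90 of the ER), Calr (calreticulin), the disulfide isomerases Pdia3, Pdia4 and Pdia6, the BiP co-chaperones Dnajb9, Dnajc3 and Sdf2l1, the secreted factor Manf and the ER protein gene Creld2. Sdf2l1 was uneven, with 5.28 CPM in EdU+ Fasn-R1812W and 78.1 CPM in EdU+ WT nuclei, where 46.8% of the reads came from 1 nucleus. Pdia4 had 78.7 CPM in EdU+ Fasn-R1812W and 96.8 CPM in EdU+ WT nuclei, against 22.5 CPM in NeuN+ Fasn-R1812W and 33.3 CPM in NeuN+ WT nuclei. Its log2 fold change was 1.67 (SE 0.50) and did not pass (edgeR adjusted p = 0.0754), as with Pdia3 at 1.16 (SE 0.33, edgeR adjusted p = 0.0639). Pdia3 and Pdia6 overlap a gene on the other strand, as do Manf, Syvn1, Derl2, Eif2ak3, Ppp1r15a, Ppp1r15b, Ddit3 and Shmt2. Hsp90b1, Dnajb9, Herpud1, Atf3 and Psat1 do so too, with a partner that was not among the genes counted. It is not stated whether strand was used in counting, so values of all these members may hold reads of the partner. Hyou1, which encodes a nucleotide exchange factor for BiP, stood on the other side, with 6.78 CPM in EdU+ Fasn-R1812W and 7.85 CPM in EdU+ WT nuclei, against 19.8 CPM in NeuN+ Fasn-R1812W and 32.7 CPM in NeuN+ WT nuclei. Both of its EdU+ values were below both NeuN+ values, and its log2 fold change of -1.80 (SE 0.96) did not pass (edgeR adjusted p = 0.304). Per kilobase of annotated exon, the highest levels in NeuN+ WT nuclei were those of Hsp90b1 (77.0 CPM per kb), Canx (74.2) and Calr (65.6), and the same 3 genes led in NeuN+ Fasn-R1812W. Canx (164 CPM per kb) led in EdU+ Fasn-R1812W and Selenos (224 CPM per kb) in EdU+ WT nuclei.

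**Figure D2:**
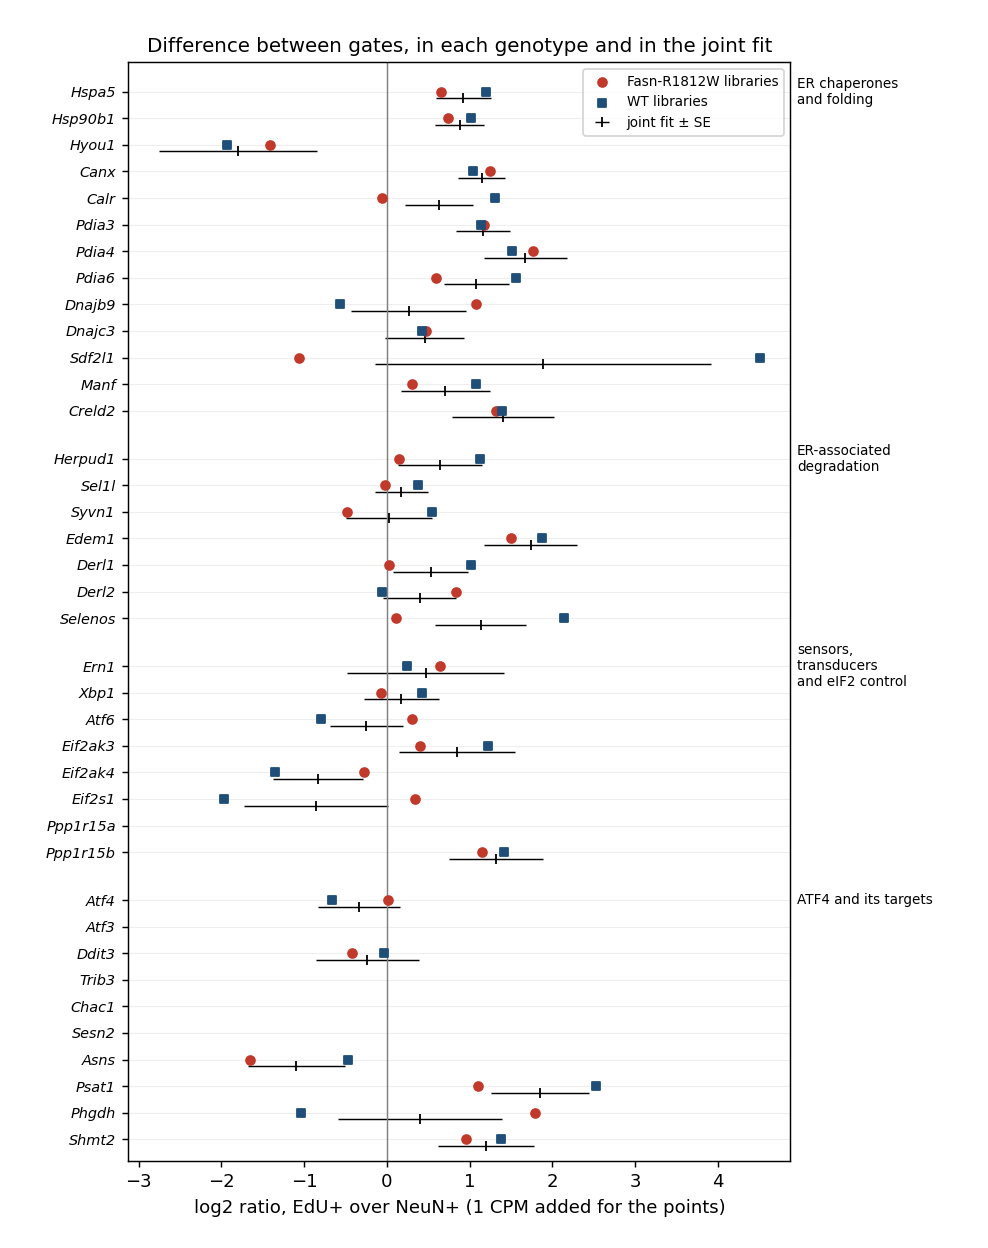
Log2 ratio of EdU+ over NeuN+ for the 33 members tested, as 1 point for each genotype after adding 1 CPM, with the joint fit and its standard error as a bar below. Chaperones lie mostly right of 0, with medians by role of 0.93 for chaperones, 0.53 for ERAD, 0.18 for sensors and 0.09 for the ATF4 group.

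All 7 ERAD genes had a fold change above 0 in the joint fit, with a median of 0.53, and none passed. Edem1, a lectin that extracts misfolded glycoproteins, had 82.9 CPM in EdU+ Fasn-R1812W and 56.7 CPM in EdU+ WT nuclei, against 28.6 CPM in NeuN+ Fasn-R1812W and 14.7 CPM in NeuN+ WT nuclei, at a log2 fold change of 1.74 (SE 0.56, edgeR adjusted p = 0.0962). By this fold change it was the ERAD gene whose gates were farthest apart. Its EdU+ WT level rests on 9 of 167 nuclei, 1 of which gave 31.7% of the reads. With the relaxed nucleus filter used below, Edem1 had 30.4 CPM in EdU+ WT nuclei, close to the 28.0 CPM in NeuN+ Fasn-R1812W nuclei. Under that filter it had 82.3 CPM in EdU+ Fasn-R1812W and 14.8 CPM in NeuN+ WT nuclei. The levels of Sel1l, the scaffold of the HRD1 ubiquitin ligase complex, were close in all 4 libraries, with 281 CPM in EdU+ Fasn-R1812W and 355 CPM in EdU+ WT nuclei, against 285 CPM in NeuN+ Fasn-R1812W and 273 CPM in NeuN+ WT nuclei. Syvn1, the ligase itself, had a log2 fold change of 0.03. Over all members tested, the gate ratio was above 0 in both genotypes for 18, below 0 in both for 4 and opposite for 11, where over all genes tested the shares were 32.1%, 36.5% and 31.1%.

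Among the sensors and transducers no member passed for gate. Xbp1, the transcription factor whose mRNA IRE1 splices, had 70.5 CPM in EdU+ Fasn-R1812W and 91.1 CPM in EdU+ WT nuclei, against 74.0 CPM in NeuN+ Fasn-R1812W and 67.8 CPM in NeuN+ WT nuclei. Its log2 fold change was 0.18 (SE 0.45, edgeR adjusted p = 0.864). The WT library was the higher of the EdU+ pair and the Fasn-R1812W library of the NeuN+ pair, and the 4 values lay close together. Ern1, which encodes IRE1, was low in all of them, between 13.4 and 21.5 CPM, and Atf6 lay between 78.7 and 151 CPM. The largest log2 fold change in this role was that of Ppp1r15b, the constitutive regulator of eIF2 dephosphorylation, at 1.32 (SE 0.57, edgeR adjusted p = 0.201).

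Atf4, the effector of the integrated stress response, had 66.1 CPM in EdU+ Fasn-R1812W and 44.3 CPM in EdU+ WT nuclei, against 65.6 CPM in NeuN+ Fasn-R1812W and 71.0 CPM in NeuN+ WT nuclei, at a log2 fold change of -0.33 (SE 0.49, edgeR adjusted p = 0.747). Ddit3, which encodes CHOP, a factor linked to cell death under lasting ER stress, had 32.0 CPM in EdU+ Fasn-R1812W and 29.9 CPM in EdU+ WT nuclei, against 43.1 CPM in NeuN+ Fasn-R1812W and 30.7 CPM in NeuN+ WT nuclei. Neither gene separated the gates. Of the other ATF4 targets, the serine synthesis gene Psat1 was higher in both EdU+ libraries, with 54.8 CPM in EdU+ Fasn-R1812W and 119 CPM in EdU+ WT nuclei, against 25.1 CPM in NeuN+ Fasn-R1812W and 19.8 CPM in NeuN+ WT nuclei, and the asparagine synthetase gene Asns was lower in both, with 19.1 CPM in EdU+ Fasn-R1812W and 49.0 CPM in EdU+ WT nuclei, against 62.2 CPM in NeuN+ Fasn-R1812W and 68.2 CPM in NeuN+ WT nuclei. Neither passed, at log2 fold changes of 1.85 (SE 0.59, edgeR adjusted p = 0.0946) for Psat1 and -1.09 (SE 0.58, edgeR adjusted p = 0.304) for Asns. The glycine synthesis gene Shmt2 had a log2 fold change of 1.20 and Phgdh, the first enzyme of serine synthesis, one of 0.40, with edgeR adjusted p of 0.256 and 0.857.

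Low levels were found for 5 members, Atf3, Trib3, Chac1, Sesn2 and Ppp1r15a, which did not reach 10 CPM with a read in 10% of nuclei in any library. Atf3, a stress-induced transcription factor, had reads in the EdU+ Fasn-R1812W library alone, at 5.01 CPM, and 94.5% of them came from 1 nucleus of a microglia-like cluster. Trib3, a pseudokinase induced by ATF4 and CHOP, had 0 reads in both EdU+ libraries, 3.41 CPM in NeuN+ Fasn-R1812W with 88.3% from 1 nucleus, and 0.101 CPM in NeuN+ WT. Chac1, a glutathione-degrading enzyme, had 0 reads in both EdU+ libraries and 7.12 and 8.65 CPM in NeuN+ Fasn-R1812W and NeuN+ WT nuclei. A count of 0 allows up to 3 reads, or 0.0316 CPM in EdU+ Fasn-R1812W and 0.200 CPM in EdU+ WT nuclei. Against these limits Chac1 was lower in both EdU+ libraries than in either NeuN+ library. The limits cover counting error only, and the NeuN+ levels of Chac1 rested in large part on single nuclei, as given by class below. Ppp1r15a, which encodes the stress-induced regulator GADD34, had 18.7 CPM in EdU+ Fasn-R1812W and 0 CPM in EdU+ WT nuclei, against 3.19 CPM in NeuN+ Fasn-R1812W and 6.68 CPM in NeuN+ WT nuclei, with 44.7% of the EdU+ Fasn-R1812W reads from 1 nucleus. Sesn2, a stress-induced inhibitor of mTORC1 signalling, lay between 1.40 and 13.6 CPM. Counting Atf3, Ddit3, Trib3, Chac1, Sesn2, Asns and Ppp1r15a, a set of 7 chosen after the values were seen, no nucleus held more than 3 of them at 3 reads or more. None of them was held at that level by 301 of 348 EdU+ Fasn-R1812W and 140 of 167 EdU+ WT nuclei, against 172 of 301 NeuN+ Fasn-R1812W and 162 of 314 NeuN+ WT nuclei, at unequal depth.

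The share of nuclei with a read went the other way from the pooled level. With every nucleus thinned to 50000 reads, 34 of 38 members had a read in a smaller share of EdU+ than NeuN+ nuclei in both genotypes. Over all 11917 genes tested 87.1% did, and 30 of the 33 members tested, so this holds for most genes and not for the members in particular. Before thinning, at unequal depth, 26 of 38 members did, and Canx, Pdia3 and Pdia4 were among the other 12. Hspa5 had a read in 44.3% of EdU+ Fasn-R1812W and 38.9% of EdU+ WT nuclei, against 62.8% of NeuN+ Fasn-R1812W and 66.2% of NeuN+ WT nuclei. Canx had a read in 71.3% of EdU+ Fasn-R1812W and 64.1% of EdU+ WT nuclei, against 77.7% of NeuN+ Fasn-R1812W and 80.9% of NeuN+ WT nuclei. Before thinning, Hspa5 had a read in 67.8% of EdU+ Fasn-R1812W and 39.5% of EdU+ WT nuclei, against 71.4% of NeuN+ Fasn-R1812W and 75.2% of NeuN+ WT nuclei. Canx then had a read in 93.1% of EdU+ Fasn-R1812W and 64.7% of EdU+ WT nuclei, against 84.4% of NeuN+ Fasn-R1812W and 88.2% of NeuN+ WT nuclei. For both genes the pooled level is higher in the gate with the smaller share after thinning, and no order of expression can be read from the shares. At this equal depth the median nucleus held 1758.5 genes in EdU+ Fasn-R1812W and 1252 in EdU+ WT, against 3802 in NeuN+ Fasn-R1812W and 3599.5 in NeuN+ WT. It held 6 members in each EdU+ library and 11 in each NeuN+ library. As a share of the genes detected in a nucleus, the members had a median of 0.357% in EdU+ Fasn-R1812W and 0.423% in EdU+ WT, against 0.283% in NeuN+ Fasn-R1812W and 0.289% in NeuN+ WT nuclei. Asns and Hyou1 were lower by both measures, Hyou1 with the limits on its pooled level given above. Asns had a read in 2.87% and 4.79% of EdU+ Fasn-R1812W and EdU+ WT nuclei, against 25.2% and 28.7% of NeuN+ Fasn-R1812W and NeuN+ WT nuclei. No cell type known to lack these genes was sorted, so a background share could not be set beside them.

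**Figure D3:**
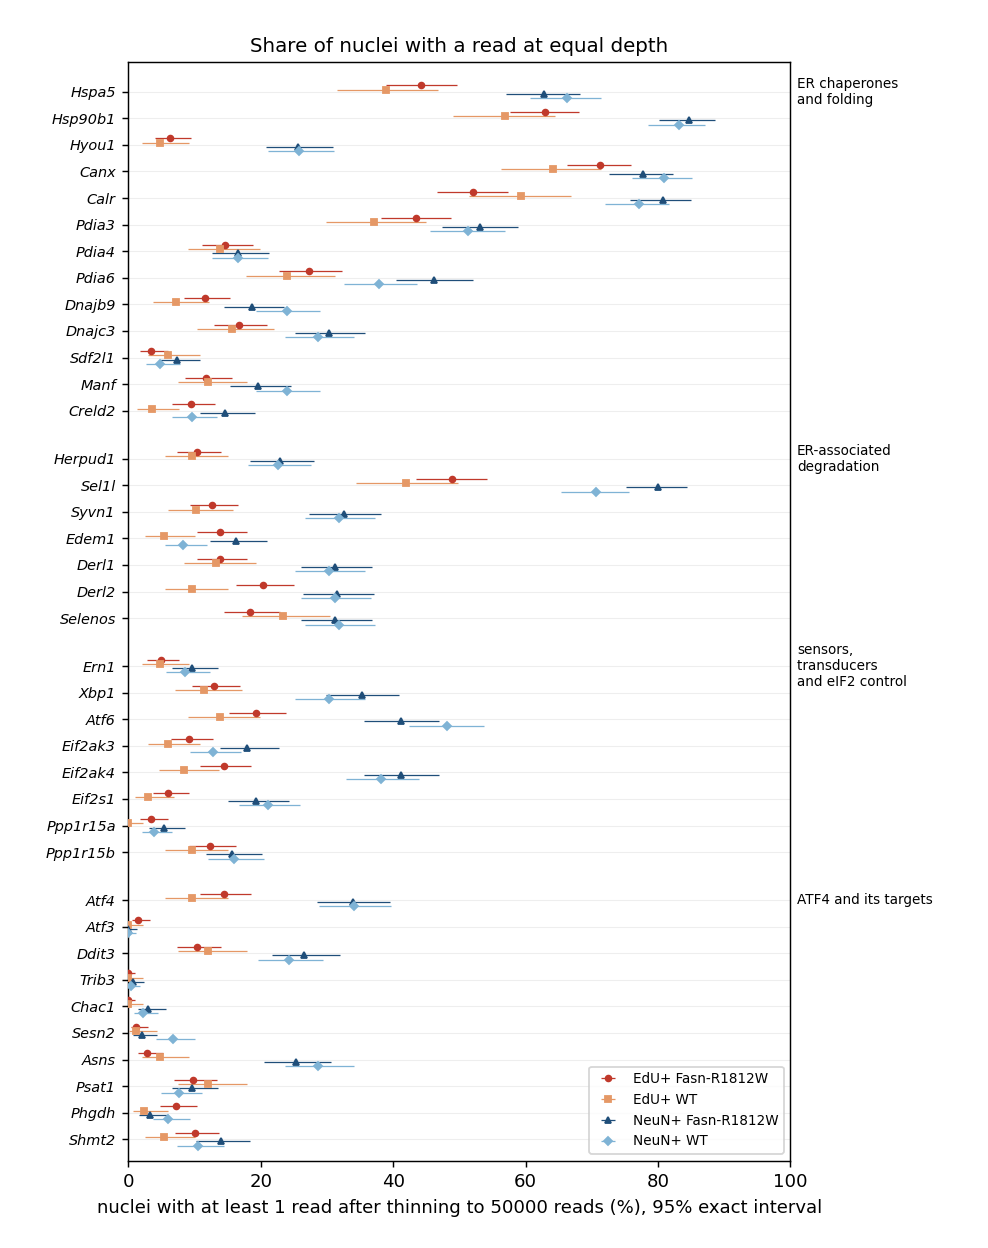
Share of nuclei (percent) with at least 1 read of each gene after thinning every nucleus to 50000 reads, with exact Clopper-Pearson 95% intervals that cover counting error only. The EdU+ points lie to the left of the NeuN+ points for 34 of 38 genes in both genotypes, the reverse of the pooled levels of most chaperones.

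The comparison of Fasn-R1812W with WT addresses whether these genes differ with the fatty acid synthase genotype, and no member was called. In the joint fit over both gates, 0 of 33 members were called at an edgeR adjusted p under 0.05, and 0 had an unadjusted p under 0.05. DESeq2's Wald test also called 0. Over all genes 0.0252% were called higher and 0% lower, with 249 of 11917 at an unadjusted p under 0.05. The members' median log2 fold change was -0.24, beside 0.02 over all genes, with 12 above 0 and 21 below. For Hspa5 it was -0.10 (SE 0.33), for Xbp1 -0.12 (SE 0.45), for Atf4 0.23 (SE 0.49) and for Ddit3 0.29 (SE 0.62). A p that misses the threshold does not show that the levels were alike. A test within a gate is not possible with 1 library per group, and the values that follow describe those libraries.

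In NeuN+ nuclei the pair of libraries was close, and 3 of 32 members with 10 CPM and a read in 10% of nuclei in either library were at least 2-fold apart. Of all genes passing that filter 3.18% were at least 2-fold higher in Fasn-R1812W and 3.02% lower, beside 2 and 1 members, and the members' median log2 ratio was 0.09 beside 0.02 for all genes. Sdf2l1, part of a chaperone complex with BiP and a J-domain partner, had 12.1 CPM (11.3 to 12.9) in NeuN+ Fasn-R1812W and 2.46 CPM (2.11 to 2.86) in NeuN+ WT nuclei. Eif2ak3, which encodes PERK, had 28.4 CPM (27.2 to 29.7) in NeuN+ Fasn-R1812W and 13.3 CPM (12.5 to 14.2) in NeuN+ WT nuclei. Dnajb9, a J-domain co-chaperone that represses IRE1, was the lower one, with 21.9 CPM (20.8 to 23.0) in NeuN+ Fasn-R1812W and 49.6 CPM (48.0 to 51.3) in NeuN+ WT nuclei. The ranges in parentheses are exact Poisson 95% intervals for the reads, and the log2 ratios were 1.92, 1.04 and -1.14 after adding 1 CPM. Sdf2l1 passed the filter through the Fasn-R1812W library alone, with a read in 10.3% of Fasn-R1812W and 5.10% of WT nuclei, and 1 nucleus gave 25.9% of the Fasn-R1812W reads. With nuclei kept from 300 genes and 20000 reads Sdf2l1 did not pass, which left Dnajb9 and Eif2ak3. Next below the 2-fold line were Atf6 at -0.93 and Edem1 at 0.91. Summed markers of astrocytes, all 13 detected in both libraries, were 805 CPM in NeuN+ Fasn-R1812W and 1912 CPM in NeuN+ WT nuclei, and their part in these ratios was not tested.

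In EdU+ nuclei 5 of 29 members passing the same filter were at least 2-fold apart, where 17.4% of all genes were at least 2-fold higher in Fasn-R1812W and 8.01% lower. The members' 3 higher and 2 lower are therefore within the background of a pair whose depths differ widely. Eif2ak4, which encodes GCN2, had 59.5 CPM (58.0 to 61.1) in EdU+ Fasn-R1812W and 25.01 CPM (22.5 to 27.7) in EdU+ WT nuclei. Eif2s1, the alpha subunit of eIF2 that the kinases phosphorylate, had 35.1 CPM (34.0 to 36.4) in EdU+ Fasn-R1812W and 9.98 CPM (8.45 to 11.7) in EdU+ WT nuclei. Phgdh had 41.4 CPM (40.1 to 42.7) in EdU+ Fasn-R1812W and 17.5 CPM (15.4 to 19.7) in EdU+ WT nuclei, so that these 3 were higher in Fasn-R1812W. They passed the filter through that library alone, since a read of Eif2ak4, Eif2s1 and Phgdh was found in 8.98%, 2.99% and 2.99% of EdU+ WT nuclei. Selenos, a selenoprotein of the ERAD complex, had 71.6 CPM (69.95 to 73.4) in EdU+ Fasn-R1812W and 330.4 CPM (321 to 339.7) in EdU+ WT nuclei, and Psat1 had 54.8 CPM (53.3 to 56.3) in EdU+ Fasn-R1812W and 119 CPM (113 to 124) in EdU+ WT nuclei, both lower in Fasn-R1812W. The log2 ratios were 1.22 for Eif2ak4, 1.72 for Eif2s1, 1.20 for Phgdh, -2.19 for Selenos and -1.10 for Psat1. With nuclei kept from 300 genes and 20000 reads, which raises the EdU+ WT library to 352 nuclei, Eif2s1 (2.52), Phgdh (1.06) and Selenos (-1.25) stayed past 2-fold, and Eif2ak4 (0.73) and Psat1 (-0.84) did not. That filter put 10 of 29 members past 2-fold, Calr, Manf, Herpud1, Syvn1, Xbp1, Ppp1r15b and Selenos lower and Edem1, Eif2s1 and Phgdh higher. Under it 15.2% of all genes were at least 2-fold higher in Fasn-R1812W and 6.88% lower, beside 3 and 7 members. Leukocyte markers, 16 genes, summed to 4654 CPM in EdU+ Fasn-R1812W and 130 CPM in EdU+ WT nuclei under the first filter, with 16 and 7 of them detected, and to 4607 and 1725 CPM under the second. Microglia markers summed to 4129.9 and 1481 CPM in EdU+ Fasn-R1812W and EdU+ WT nuclei, and the part of these cells in the ratios was not tested.

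**Figure D4:**
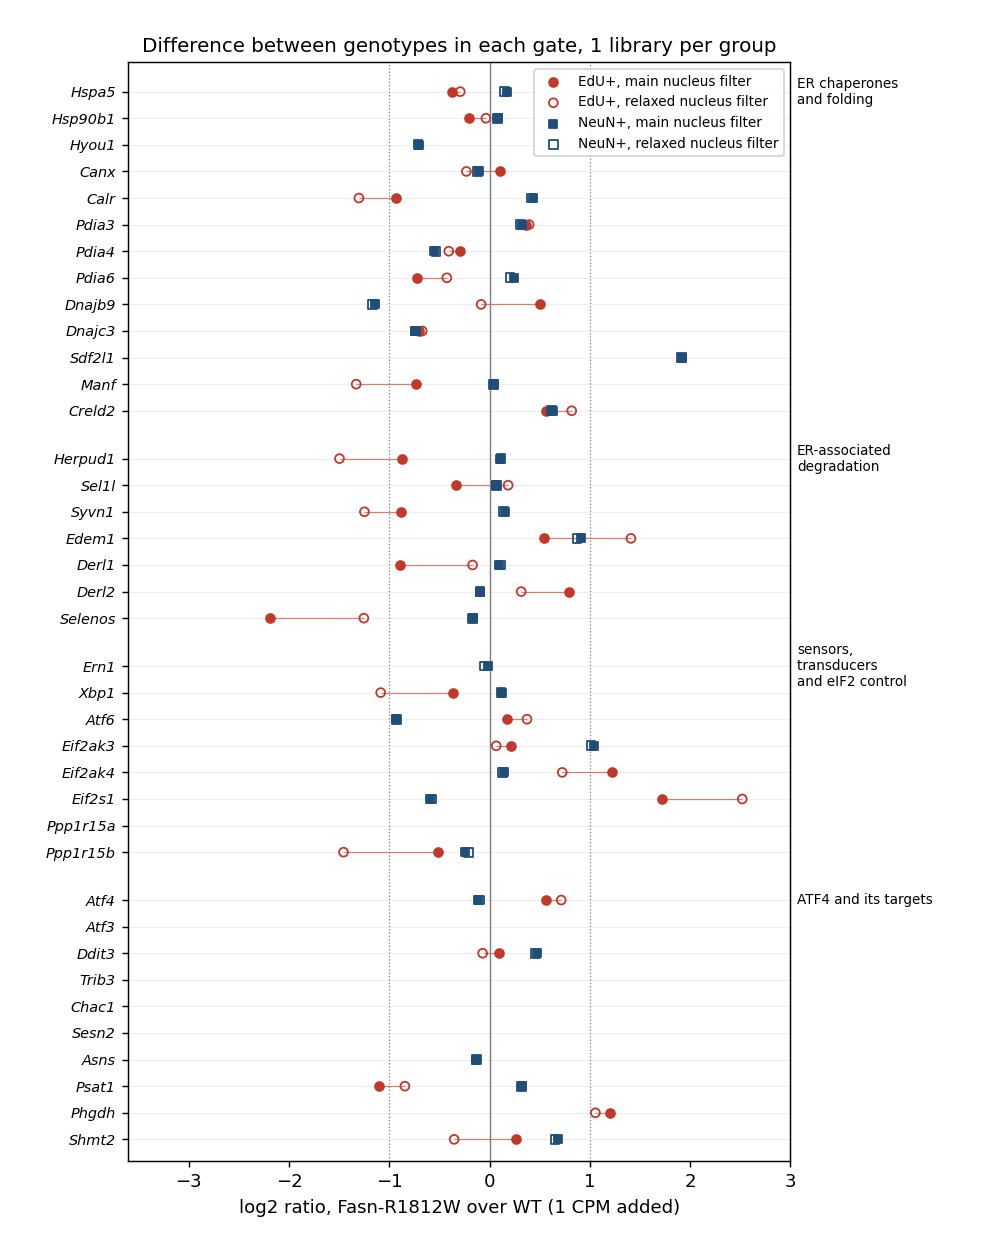
Log2 ratio of Fasn-R1812W over WT in each gate after adding 1 CPM, for members that passed the filter on level, with filled points for the main nucleus filter and open points for the relaxed one. NeuN+ points barely move between the filters, whereas several EdU+ points move across the dotted lines at 2-fold.

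Nuclei were clustered within each gate without the members or the other genes of the pathway, and clusters were named from marker lists. EdU+ nuclei were mostly OPC-like (236 Fasn-R1812W and 134 WT), with 56 microglia-like nuclei in Fasn-R1812W. A cluster of 23 Fasn-R1812W and 14 WT nuclei was left unnamed, because it was led by the neuroblast marker Igfbpl1 together with Cd74 and MHC genes. Of the OPC-like clusters, one of 38 nuclei was led by the neutrophil genes S100a8 and S100a9. NeuN+ classes were interneuron-like (40 and 42 nuclei in Fasn-R1812W and WT), dentate granule-like (80 and 137), CA1-like (100 and 60) and subicular or entorhinal-like (36 and 36), and a CA3-like cluster, with 13 nuclei in Fasn-R1812W and 4 in WT, was not compared. Since clusters were rebuilt here, the classes may differ from those of the study.

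Chaperone genes took a larger share of the pooled reads in OPC-like nuclei than in the 4 neuron classes compared. Such a share does not give the amount of transcript per nucleus. The 13 chaperone genes summed to 2742 CPM in OPC-like Fasn-R1812W and 3271 CPM in OPC-like WT nuclei, against between 1323 and 1968 CPM in the 4 neuron classes of both genotypes. Microglia-like Fasn-R1812W nuclei, at 2471 CPM, were also above these neuron values. Set against granule-like nuclei of the same genotype, 7 of 35 members were at least 2-fold higher in OPC-like nuclei in both genotypes and 0 were lower, where 15.2% of all genes were higher and 13.7% lower. The 7 were Canx, Pdia3, Pdia4, Creld2, Edem1, Ppp1r15b and Psat1. Canx had 817 CPM in OPC-like Fasn-R1812W and 795 CPM in OPC-like WT nuclei, against 273 CPM in granule-like Fasn-R1812W and 312 CPM in granule-like WT nuclei. Hspa5 had 305 CPM in OPC-like Fasn-R1812W and 446 CPM in OPC-like WT nuclei, against 218 CPM in granule-like Fasn-R1812W and 137 CPM in granule-like WT nuclei. Microglia-like Fasn-R1812W nuclei had 911 CPM of Canx, with 36.0% of the reads from 1 nucleus. For Hspa5 the OPC-like values were the higher ones in both genotypes, by less than 2-fold in Fasn-R1812W. Class and gate coincide here, so a difference between OPC-like and neuron-like nuclei cannot be told apart from one between sorts. No test was made, as each class had 1 library per genotype.

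**Figure D5:**
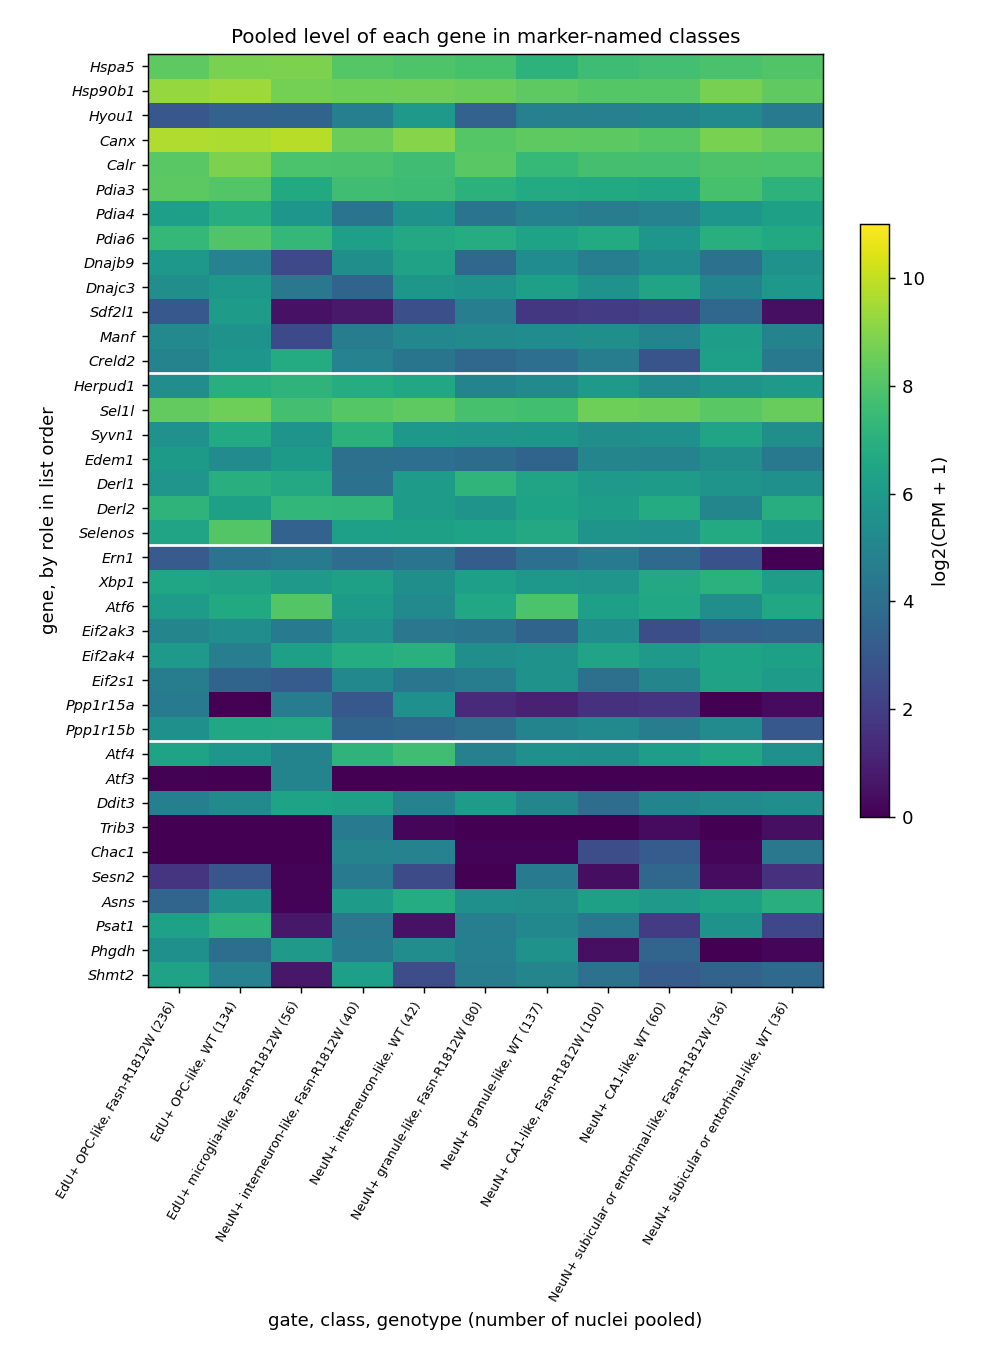
Pooled level of each gene, as log2(CPM + 1), in the marker-named classes compared, with white lines between the roles. Canx is higher in the OPC-like columns (817 and 795 CPM in Fasn-R1812W and WT) than in any neuron column shown, and Atf4 is highest in the interneuron-like columns (139.8 and 195 CPM in Fasn-R1812W and WT).

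Among the 4 NeuN+ classes, interneuron-like nuclei had the highest level of Atf4 in both libraries. It had 139.8 CPM in interneuron-like Fasn-R1812W and 195 CPM in interneuron-like WT nuclei. In granule-like, CA1-like and subicular or entorhinal-like nuclei it had 26.6, 43.4 and 86.2 CPM in Fasn-R1812W and 44.5, 70.5 and 45.5 CPM in WT. In the interneuron-like class no single nucleus gave more than 22.9% of the Atf4 reads. Chac1 had 28.9 CPM in interneuron-like Fasn-R1812W and 28.6 CPM in interneuron-like WT nuclei and at most 20.5 CPM in the other 3 classes, but rested on single nuclei: 1 nucleus gave 48.0% and 87.5% of the interneuron-like reads in Fasn-R1812W and WT, and 1 nucleus all of the 20.5 CPM in subicular or entorhinal-like WT nuclei. The ATF4 group summed to 469 and 416 CPM in interneuron-like Fasn-R1812W and WT nuclei, against between 176 and 256 CPM in the other 3 classes.

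Members and all other genes counted as measured with 10 CPM in any of the 4 classes in either library, whatever the share of nuclei. Of 37 members measured, 8 were highest in interneuron-like nuclei in both libraries, where 11.9% of all genes were: Dnajb9, Herpud1, Syvn1, Eif2ak3, Eif2ak4, Ppp1r15a, Atf4 and Chac1. Ppp1r15a and Chac1 did not pass the filter on level in any whole library, and entered through a class where they were high. Herpud1, an ERAD scaffold with the second ER stress element and a C/EBP-ATF core in its promoter, had 111 CPM in interneuron-like Fasn-R1812W and 93.1 CPM in interneuron-like WT nuclei, against between 30.3 and 59.8 CPM in the other 3 classes. Granule-like nuclei were highest in both libraries for Derl1, Atf6 and Phgdh (3 members, 11.5% of all genes), and CA1-like nuclei for Sel1l (1 member, 6.91%). Subicular or entorhinal-like nuclei were highest for Pdia4, Pdia6, Creld2 and Eif2s1 (4 members, 8.66%). With Ppp1r15a and Chac1 in it, the interneuron-like count was above the share of all genes, and the other 3 were near or below theirs. Because of how these 2 genes entered, no excess is read from that count. The same 2 libraries underlie all 4 counts, and no test was made. Dnajb9, Herpud1, Eif2ak4, Ppp1r15a, Atf4 and Chac1 were highest in interneuron-like nuclei in each of 4 other ways of forming the classes. Those ways use the same 2 libraries and are no independent support.

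The 3 members that differed between the NeuN+ libraries were spread unevenly over these classes. They were picked by their ratio in these same nuclei, so directions within the classes are no independent support. Dnajb9 was lower in Fasn-R1812W in all 4, with 43.6 CPM in Fasn-R1812W and 79.5 CPM in WT interneuron-like nuclei, 12.2 and 39.3 CPM in Fasn-R1812W and WT granule-like, 25.3 and 39.4 CPM in Fasn-R1812W and WT CA1-like, and 16.8 and 47.2 CPM in Fasn-R1812W and WT subicular or entorhinal-like nuclei. The genotypes filled the clusters of these classes unevenly: the 3 subicular or entorhinal-like clusters (0, 10 and 12) held 19, 13 and 4 Fasn-R1812W and 11, 6 and 19 WT nuclei, and interneuron-like cluster 13 held 0 Fasn-R1812W and 9 WT nuclei. Granule-like clusters 4, 5 and 9 held 14, 29 and 37 Fasn-R1812W and 38, 59 and 40 WT nuclei, and CA1-like clusters 2 and 3 held 65 and 35 Fasn-R1812W and 46 and 14 WT nuclei. Eif2ak3 was higher in Fasn-R1812W in 3 of the 4, with 40.4 CPM in Fasn-R1812W and 5.26 CPM in WT CA1-like nuclei as the widest gap, and had 9.49 CPM in Fasn-R1812W and 10.7 CPM in WT subicular or entorhinal-like nuclei. Sdf2l1 had 25.5 CPM in Fasn-R1812W and 2.42 CPM in WT granule-like nuclei but 2.76 CPM in Fasn-R1812W and 3.51 CPM in WT CA1-like nuclei, so its gap lay in some classes and not in others. Atf6 had 95.8 CPM in Fasn-R1812W and 237 CPM in WT granule-like nuclei, and the WT library held more of these nuclei. Among OPC-like nuclei Selenos had 85.2 CPM in Fasn-R1812W and 268 CPM in WT, Eif2s1 24.6 CPM in Fasn-R1812W and 10.5 CPM in WT, and Phgdh 45.4 CPM in Fasn-R1812W and 14.9 CPM in WT. The directions were those of the whole EdU+ gate, which is no independent support. OPC-like nuclei were 236 of the 348 Fasn-R1812W and 134 of the 167 WT nuclei by which these genes were picked. OPC-like values of Eif2ak4 and Psat1, also past 2-fold in that gate, are not given.

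The promoter elements shown above can be set beside the gate difference. All 8 members with the ER stress response element had a log2 fold change above 0, with a median of 0.90, and so had 15 of the 20 other matched members tested, with a median of 0.44. Within the chaperones the 7 with the element had a median of 0.93 and the 4 without it (Pdia3, Pdia4, Dnajb9 and Sdf2l1) one of 1.42. The values ranged from 0.46 to 1.40 with the element and from 0.26 to 1.89 without it, so the 2 sets overlapped. Only exact matches were searched, and a part of the element in the gate difference was not tested. Of the members with the C/EBP-ATF core, Asns and Herpud1 alone were tested, at -1.09 and 0.64.

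Of 112 other genes of the pathway, 92 were tested, and the fit called 4 higher and 1 lower in EdU+ nuclei (edgeR). Over all genes 6.94% were called higher and 5.49% lower, so 4 and 1 of 92 are no more than the background. By list, 1 of 28 folding and translocation genes and 0 of 18 ERAD genes were called higher. So were 2 of 21 sensors and transducers and 1 of 25 ATF4 targets. The 1 called lower was on the list of sensors and transducers. Eif2ak2, which encodes the eIF2 kinase PKR, had 64.5 CPM in EdU+ Fasn-R1812W and 35.9 CPM in EdU+ WT nuclei, against 0.0997 CPM in NeuN+ Fasn-R1812W and 0.9498 CPM in NeuN+ WT nuclei (log2 fold change 7.15, SE 1.39, edgeR adjusted p = 0.0186). Nfe2l2, the regulator of antioxidant genes, had 161 CPM in EdU+ Fasn-R1812W and 17.2 CPM in EdU+ WT nuclei, against 3.76 CPM in NeuN+ Fasn-R1812W and 0.964 CPM in NeuN+ WT nuclei (log2 fold change 4.80, SE 0.70, edgeR adjusted p = 0.00636). Both had under 4 CPM in each NeuN+ library. They entered the test through the EdU+ gate alone, where they were high, so the filter favoured this direction. Gpt2, an alanine transaminase induced by ATF4, rose with a log2 fold change of 2.44 (SE 0.41, edgeR adjusted p = 0.0109), and Wfs1, an ER protein also used here as a CA1 marker, fell by 2.36 on the log2 scale (SE 0.55, edgeR adjusted p = 0.0340). Wfs1 entered the test through the NeuN+ gate alone. P4hb, a disulfide isomerase named after its value was seen, was the fourth called higher, at a log2 fold change of 1.57 (SE 0.39, edgeR adjusted p = 0.0415). For genotype 0 of the 92 were called (edgeR). In NeuN+ nuclei the largest ratios were those of the proline synthesis gene Aldh18a1 (27.2 CPM in Fasn-R1812W and 9.58 CPM in WT) and the mitochondrial folate gene Mthfd2 (16.4 and 5.83 CPM in Fasn-R1812W and WT), and the lowest those of Rnf139 (54.6 and 106 CPM in Fasn-R1812W and WT) and Slc7a3 (13.3 and 22.1 CPM in Fasn-R1812W and WT). In EdU+ nuclei the cell death gene Bcl2l11 had 41.3 CPM in Fasn-R1812W and 3 reads, or 0.200 CPM, in WT, and Nfe2l2 the values above, while Edem2 (25.7 and 118 CPM in Fasn-R1812W and WT) and Sil1 (15.6 and 67.0 CPM in Fasn-R1812W and WT) had the lowest ratios.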

How the data were processed

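The authors deposited whole-number read counts per gene and well, 384 wells in each of 4 libraries. Per the submitters' processing notes, Trimmomatic 0.36, STAR 2.5.3a and GRCm38.p5 were used. No source used here gives the counting program, the annotation or the use of strand, and Smart-seq2 reads carry no molecular identifiers. The labels name 4 groups with 1 library each and do not say which animals lie behind them, so every p-value measures only the spread between these libraries. The embryonic nuclei of the series were not analysed here.

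Nuclei with at least 1000 genes and 50000 reads were kept, and their counts were summed per library and scaled to the total of nuclear-encoded genes (CPM). Genes with 10 CPM and a read in 10% of nuclei in at least 1 library entered 1 model of gate and genotype (edgeR 4.0.16, quasi-likelihood, 1 residual degree of freedom, called at an adjusted p under 0.05). Between genotypes within a gate no test was possible, and log2 ratios were taken after adding 1 CPM. For shares, nuclei were thinned to 50000 reads. Poisson and Clopper-Pearson intervals are exact at 95% and, like the floor of 3 reads for a count of 0, cover counting error only. Nuclei were clustered within each gate (scanpy 1.11.5, Leiden, resolution 1) without pathway, sex-linked and mitochondrially encoded genes, and class levels were taken from at least 10 nuclei in a library. No doublet caller was run, and an alternative left out the nuclei richest in genes, 5% of each library. Other alternatives changed scaling, filters, weighting, the test (DESeq2 1.42.0), the added CPM and the clustering, and left out each library. Values in every library are given for members called, members at least 2-fold apart between genotypes, Hspa5, Xbp1, Atf4 and Ddit3, and for others singled out after their values were seen. Of other pathway genes, up to 3 called in each direction and the extreme ratios in each gate are named. The members, lists and tests were chosen with earlier results of these data known.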

Additional observations from a re-analysis of the deposited data

Results flagged for a closer look

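For 2 genes the difference between genotypes ran in opposite directions in the gates, and this difference between gates was not tested, since each group had 1 library. Dnajb9 had a log2 ratio of Fasn-R1812W over WT of 0.50 in EdU+ nuclei and of -1.14 in NeuN+ nuclei. Its EdU+ WT level rests on 12 of 167 nuclei, 1 of which gave 36.8% of the reads, and with the relaxed nucleus filter its EdU+ ratio was -0.083, so that the opposite direction was not kept. Eif2s1 had a log2 ratio of Fasn-R1812W over WT of 1.72 in EdU+ nuclei and of -0.59 in NeuN+ nuclei. Its EdU+ WT level rests on 5 of 167 nuclei, 1 of which gave 46.7% of the reads, and with the relaxed nucleus filter its EdU+ ratio was 2.52.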

How the results depend on the processing

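The count of members called for gate (1) was 0 with TMM scaling, with the strict nucleus filter, with no gene filter and without the 5% of nuclei richest in genes. It was 2 with the relaxed nucleus filter or without the top nucleus of each gene, 4 with equal weight per nucleus and 8 with DESeq2's Wald test, and leaving out 1 library, with the lone library of a gate assumed to vary like the other gate, gave 0 to 15. The genotype count was 0 under every alternative run. Members at least 2-fold apart between genotypes in NeuN+ nuclei (3) numbered 6 with no gene filter and 2 to 4 otherwise. In EdU+ nuclei (5) they numbered 10 with the relaxed filter, with no nucleus filter or with no gene filter, 22 of 31 with the strict filter, under which 77.6% of all genes were 2-fold apart, and 5 to 7 otherwise. The strict filter leaves 5 EdU+ WT nuclei, and under it the EdU+ log2 ratios of Selenos (3.44), Eif2ak4 (-0.90) and Phgdh (-1.32) changed sign. The gate log2 fold change of Xbp1 changed sign with the strict filter (-3.43) and without the top nucleus of each gene (-0.011), and ranged from -0.0091 (without EdU+ WT) to 0.36 with 1 library left out. That of Ddit3 changed sign with equal weight (0.28), and ranged from -0.48 to 0.012 (without NeuN+ Fasn-R1812W) with 1 library left out. The cause was not tested. Genes called for gate over all genes (1481) ranged from 177 to 2890, and from 605 to 3819 without 1 library. No paired analysis was possible because each group had 1 library. Depth in EdU+ WT nuclei and single nuclei that hold much of a gene's reads limit the low genes.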
